A study of Mus musculus with 3 samples.

Results

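The 8 genes described here encode enzymes that cut the extracellular matrix and the inhibitors that hold them in check. They are the matrix metalloproteinases Mmp2, Mmp13 and Mmp14, the secreted ADAMTS proteases Adamts1 and Adamts5, and the tissue inhibitors of metalloproteinases Timp1, Timp2 and Timp3. They were taken by name from the 22535 genes of the 3 count tables, and all 8 were detected. The BD Rhapsody platform was used to make single-cell RNA libraries of kidney cortex from mice that carried WT1CreERT2 and Rosa26-tdTfl/+ and were given tamoxifen. In these mice Cre driven from the Wt1 locus leaves tandem tomato (tdT) in cells that expressed Wt1. By immunostaining, the study saw this reporter in podocytes and in parietal epithelial cells (PECs). Sham came from mice after sham surgery, and IRI24h-TDN from mice 24 h after severe bilateral renal ischemia-reperfusion injury (IRI), and in both the sorted tdT+ cells were mixed 2:1 with tdT- cells. IRI24h-TD held sorted tdT+ cells alone from mice at the same 24 h. Each library pooled 4 kidneys and each condition had 1 library, so differences between conditions were not checked against replicates and were not tested. Ages of the mice are not given in the sources used here.

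Matrix metalloproteinases are made as inactive precursors and need a zinc ion to cut collagens, gelatin, laminin and other matrix proteins. Mmp14 is anchored in the cell membrane, where it activates the precursor of Mmp2 in a complex that also contains Timp2, while Mmp13 is a collagenase. Adamts1 and Adamts5 cut the proteoglycans aggrecan and versican. Timp1 and Timp2 are soluble inhibitors, whereas Timp3 binds to the matrix and is the chief inhibitor of ADAMTS enzymes. In the kidney this system is best known from the turnover of the glomerular and tubular basement membranes and from fibrosis.

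Sham, IRI24h-TDN and IRI24h-TD held 69980443, 92355554 and 93470709 unique molecular identifiers (UMIs), each UMI standing for 1 captured molecule. Of 30008 barcodes, 26760 were kept as cells, 8047, 9024 and 9689 by library, with a median of 7746, 9151 and 9529 UMIs per cell. Between 102 and 114 barcodes were shared by any 2 libraries. Cells were grouped into 15 classes named from marker genes, and a level is given as CPM, the UMIs of the gene scaled to a common total of all UMIs of the class (counts per 1e6), with a 95% interval that covers counting error only. Podocyte-like cells made up 17582 cells, 65.7% of the total. The other classes that matter most below were PEC-like cells (385), cells with PEC and proximal tubule markers (PEC-proximal, 575), cells with podocyte and PEC markers (podocyte-PEC, 836), mural-like cells (749), fibroblast-like cells (192) and macrophage-like cells (925). Of the PEC-like cells 257, 54 and 74 were in Sham, IRI24h-TDN and IRI24h-TD, so every PEC-like ratio of IRI24h-TDN rests on 54 cells. Proximal tubule markers, 16 genes summed, stood at 357 CPM in podocyte-like cells of Sham and at 8.74 CPM in those of IRI24h-TDN, and at 788 against 35.1 CPM in macrophage-like cells, classes that should lack them. Podocyte markers, 12 genes summed, stood at 1519 and 1088 CPM in macrophage-like cells, 1688 and 2689 CPM in intercalated-like cells and 14696 and 7452 CPM in endothelial-like cells of the same libraries. The part of RNA from other cells in the levels below was not tested.

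In the mouse genome (build GRCm38, the same assembly as mm10), Adamts5 and Adamts1 lie side by side on the minus strand of chromosome 16, at 85856173 to 85901828 and 85793827 to 85803113, with 53059 bases between them. Mmp13 lies on chromosome 9 at 7272514 to 7283331 and Mmp2 on chromosome 8 at 92827291 to 92853420, both on the plus strand. Mmp14 lies on the plus strand of chromosome 14 at 54431612 to 54445364 and Timp2 on the minus strand of chromosome 11 at 118301069 to 118355740. Timp1 (chromosome X, 20870166 to 20874735) lies inside Syn1 and Timp3 (chromosome 10, 86300372 to 86349506) inside Syn3, each on the opposite strand. Timp1 shares 0 exonic bases with its host gene and Timp3 shares 1733 of its 8144, and whether counting used the strand is not given in the sources used here. In podocyte-like cells Syn3 stood at 5.94, 2.94 and 3.29 CPM in Sham, IRI24h-TDN and IRI24h-TD beside 747, 562 and 571 CPM for Timp3.

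The 120 bases before the annotated start are shown for 3 members, Mmp13, Timp1 and Adamts1, which were not picked by a rule. RefSeq promoter windows (GRCm38.p6) were found for 6 of the 8 members. Each is written 5′ to 3′ on the strand of the gene, and capitals mark matches on either strand to TGANTCA, the AP-1 motif bound by Fos and Jun proteins, or to TATAAA.
Mmp13, chr9:7272394-7272513, plus strand: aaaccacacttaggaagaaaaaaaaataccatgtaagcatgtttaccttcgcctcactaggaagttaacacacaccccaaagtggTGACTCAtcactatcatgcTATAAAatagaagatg
Timp1, chrX:20870046-20870165, plus strand: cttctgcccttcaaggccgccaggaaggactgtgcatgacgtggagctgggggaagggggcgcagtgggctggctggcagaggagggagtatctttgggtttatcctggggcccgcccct
Adamts1, chr16:85803114-85803233, minus strand: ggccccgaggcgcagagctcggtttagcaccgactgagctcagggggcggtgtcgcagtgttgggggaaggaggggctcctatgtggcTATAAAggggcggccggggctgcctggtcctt
Of 32851 windows of 250 bases before a start, 6.75% held TGANTCA and 12.4% held TATAAA. Among the 6 members only Mmp13 held the first motif, 35 bases before its start, and Mmp13 and Adamts1 held the second, 16 and 32 bases before theirs. A match is a description of the letters and not a sign of binding.

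Over all 3 libraries the inhibitors far outnumbered the proteases in UMIs. Timp2 had 256007 UMIs and was seen in 84.0% of cells, Timp3 had 129365 UMIs in 82.4% of cells, and Adamts1 had 80981 UMIs in 33.1%. Adamts5, Mmp2, Mmp14, Mmp13 and Timp1 followed with 10699, 9309, 5373, 5354 and 3342 UMIs. Where those UMIs came from differed from gene to gene. Podocyte-like cells, the most numerous class, held 83.1% of Timp2, 79.2% of Timp3 and 75.3% of Mmp2 UMIs. Macrophage-like cells held 93.2% of Mmp13. PEC-like cells held 34.9% of Adamts5, although they were 385 of the 26760 cells.

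**Figure D1:**
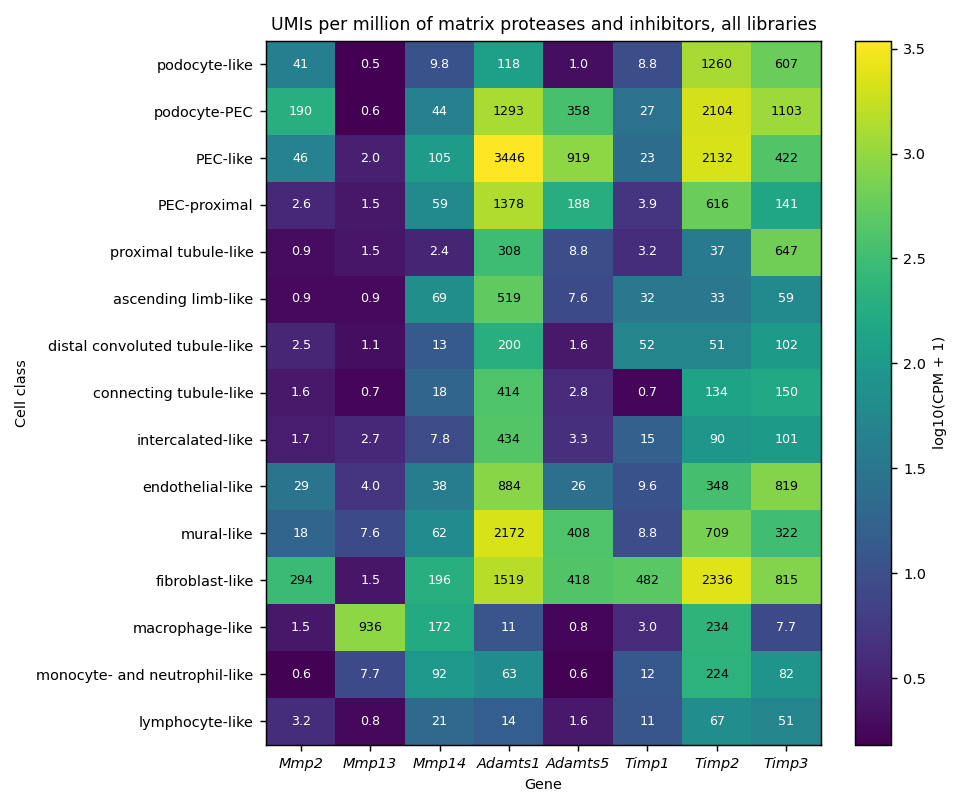
Level of each of the 8 genes (columns) in each of 15 cell classes (rows) over all 3 libraries, with the CPM written in each cell and the colour on a log10(CPM + 1) scale. Mmp13 stands out in macrophage-like cells at 936 CPM, Adamts1 and Adamts5 are highest in PEC-like cells, and Timp2 is at 1260 CPM or more in fibroblast-like, PEC-like, podocyte-PEC and podocyte-like cells.

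**Figure D2:**
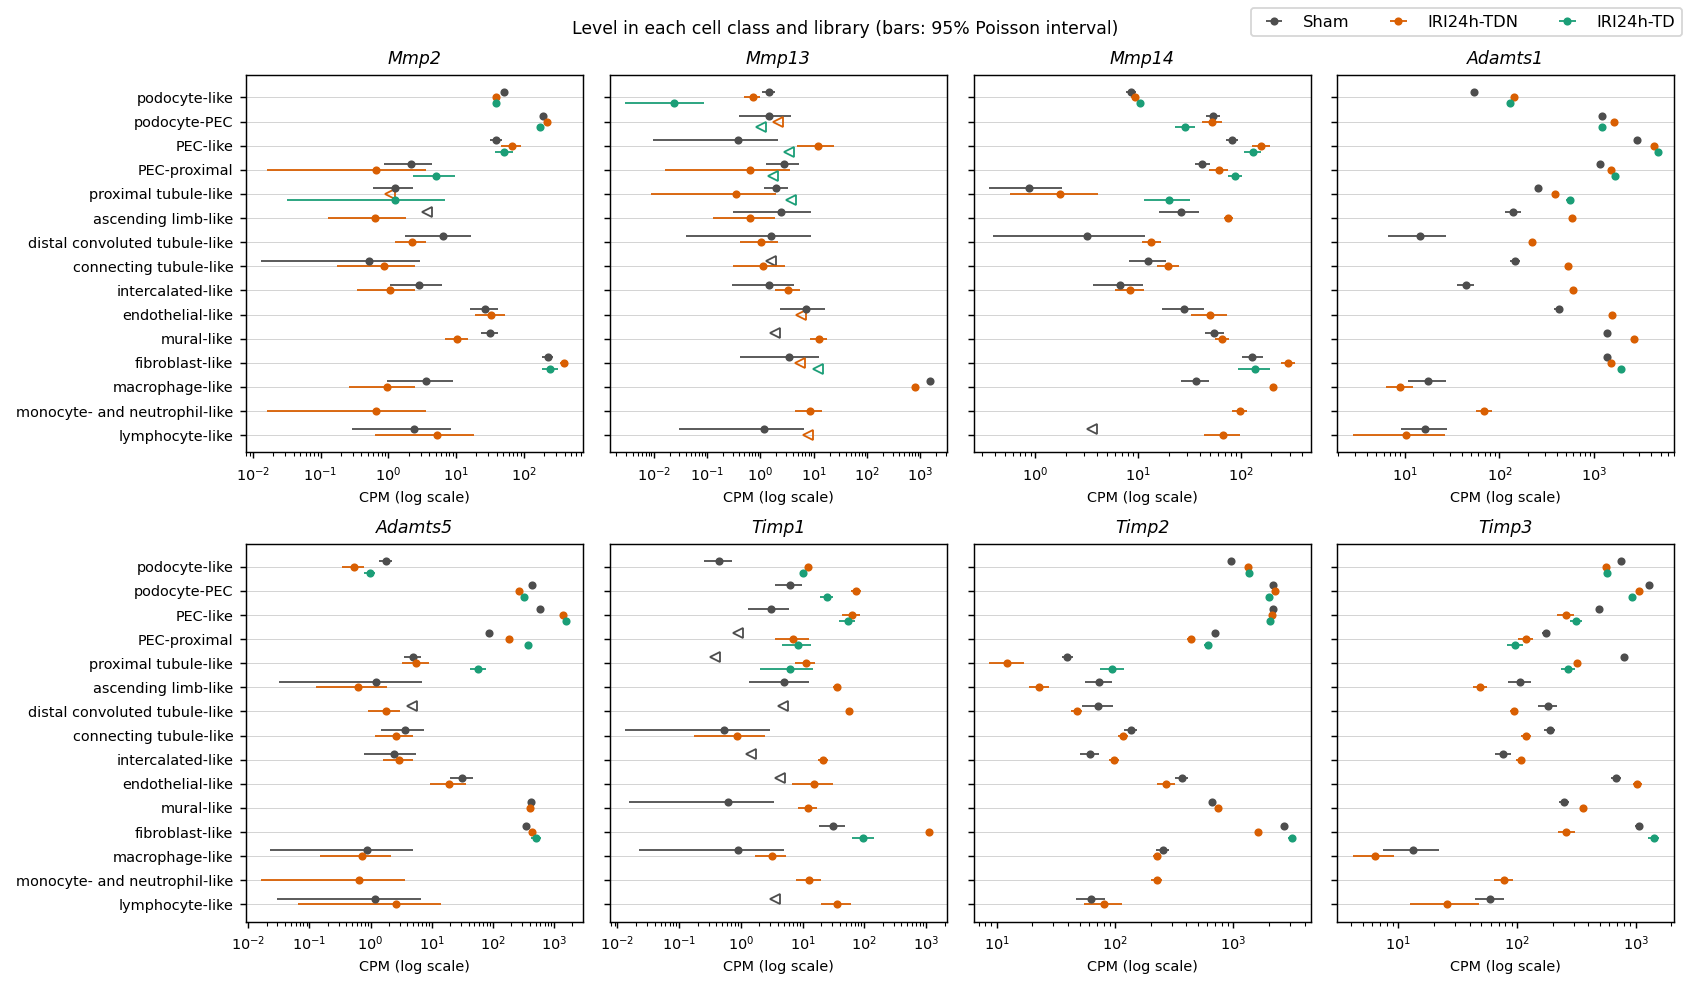
Level (CPM, log axis) of each gene in each class by library, with 95% Poisson intervals that cover counting error. Classes with under 40 cells in a library are left out, and hollow triangles mark 0 UMIs, drawn at the level 3 UMIs would give. Timp1 lies to the right in IRI24h-TDN in nearly every class, while Timp3 lies to the left in podocyte-like, PEC-like and proximal tubule-like cells.

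Mmp2, the gelatinase that cuts denatured and basement membrane collagen, was highest in fibroblast-like cells, at 294 CPM (95% interval 266 to 325) over the 3 libraries, with a UMI in 49.0% of cells. The podocyte-PEC class came next at 190 CPM (180 to 201). PEC-like cells at 45.5 CPM and podocyte-like cells at 41.5 CPM followed, and their intervals overlapped. Endothelial-like and mural-like cells stood at 28.8 and 18.0 CPM, and no tubular or leukocyte class passed 3.17 CPM.

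Between Sham, IRI24h-TDN and IRI24h-TD, Mmp2 stood at 51.1, 38.7 and 38.9 CPM in podocyte-like cells. The ratio of IRI24h-TDN to Sham was 0.756 (0.709 to 0.807), and 22.8%, 22.0% and 22.5% of podocyte-like cells had a UMI, at median depths of 8308, 9399 and 9780.5 UMIs. After thinning to a common depth these shares were 8.58%, 6.55% and 6.37%. In PEC-like cells the 3 levels were 38.9, 65.9 and 51.4 CPM, a ratio of 1.70 (1.14 to 2.48) resting on 101 and 39 UMIs, of which 1 cell of IRI24h-TDN gave 23.1%. In podocyte-PEC cells they were 190, 223 and 174 CPM, a ratio of 1.17 (1.01 to 1.35). Mural-like cells showed 31.4 CPM in Sham and 10.3 CPM in IRI24h-TDN, from 51 and 27 UMIs (ratio 0.328, 0.198 to 0.534). Most of the Sham UMIs came from a mural-like sub-cluster led by Ren1, the renin gene, in which Mmp2 was 160 CPM in Sham and 48.2 CPM in IRI24h-TDN (36 and 11 UMIs).

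Fibroblast-like cells had 225, 391 and 246 CPM of Mmp2, with a UMI in 38.9%, 73.2% and 51.2% of 108, 41 and 43 cells. These cells were not alike between libraries: 7 fibroblast markers summed to 7393, 32070 and 2212 CPM, 12 podocyte markers to 6213, 2599 and 12326 CPM, and the median depth was 3713, 12055 and 3984 UMIs. The part of that difference in every fibroblast-like value given here was not tested, and with under 50 cells in a library no ratio is given for this class.

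Mmp13, a collagenase that cuts fibrillar collagen, was nearly confined to macrophage-like cells among the 15 classes. They held 936 CPM (910 to 962) with a UMI in 45.7% of cells, 121 times the next class, the monocyte- and neutrophil-like cells at 7.71 CPM. Podocyte-like cells, where 0.432% of cells had a UMI, stood lowest at 0.527 CPM. The macrophage-like level was 1545 CPM in Sham and 784 CPM in IRI24h-TDN, a ratio of 0.507 (0.478 to 0.538). Cells with a UMI were 68.8% of 247 in Sham and 37.5% of 667 in IRI24h-TDN, and with every cell thinned to 2000 UMIs they were 64.2% and 28.3%. The count itself was larger after IRI, 3238 against 1739 UMIs, since IRI24h-TDN held more of these cells. The 11 macrophage-like cells of IRI24h-TD gave 12 UMIs. In podocyte-like cells Mmp13 had 52, 35 and 2 UMIs in the 3 libraries, the lowest in the library with 11 macrophage-like cells. In mural-like cells, 0 UMIs in Sham stood against 33 in IRI24h-TDN, of which 1 cell gave 87.9%.

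Mmp14, the membrane-anchored metalloproteinase that activates Mmp2, was spread over more classes. Fibroblast-like cells at 196 CPM (173 to 221) and macrophage-like cells at 172 CPM (161 to 184) led with overlapping intervals. PEC-like cells at 105 CPM, monocyte- and neutrophil-like cells at 92.5 CPM and ascending limb-like cells at 68.9 CPM came next, and podocyte-like cells were near the bottom at 9.76 CPM. In macrophage-like cells Mmp14 went the opposite way to Mmp13. It stood at 36.4 CPM in Sham and 208 CPM in IRI24h-TDN (41 and 861 UMIs), a ratio of 5.72 (4.18 to 8.03), and cells with a UMI went from 6.88% to 53.5%, or from 4.17% to 29.8% after thinning. In the same cells Timp2 was 251 and 225 CPM (ratio 0.893, 0.781 to 1.02).

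The opposite directions of Mmp13 and Mmp14 were seen in most of the 6 sub-clusters of macrophage-like cells. Mmp13 was lower in IRI24h-TDN in 5 of them, with ratios of 0.623, 0.376, 0.355, 0.443 and 0.393. The exception was the proliferating sub-cluster led by Top2a and Mki67, with 195 CPM in Sham and 400 CPM in IRI24h-TDN from 16 and 177 UMIs. Mmp14 was higher in IRI24h-TDN in all 6, from 33.6 to 272 CPM in the sub-cluster led by Il12b and Il1a, and from 20.5 to 140 CPM in that led by Saa3 and Fcna, which also held the resident macrophage gene Lyve1. In the sub-cluster led by Ccr2, the chemokine receptor of recruited monocytes, Mmp14 was already 105 CPM in Sham and 226 CPM in IRI24h-TDN, and Mmp13 was lowest but for the proliferating cells, 782 and 346 CPM. Summed expression of 10 immediate early and heat shock genes, which dissociation can raise, was 24553 CPM in macrophage-like cells of Sham and 7023 CPM in those of IRI24h-TDN, while 7 macrophage markers summed to 10479 and 16536 CPM. The part of either in these results was not tested.

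**Figure D3:**
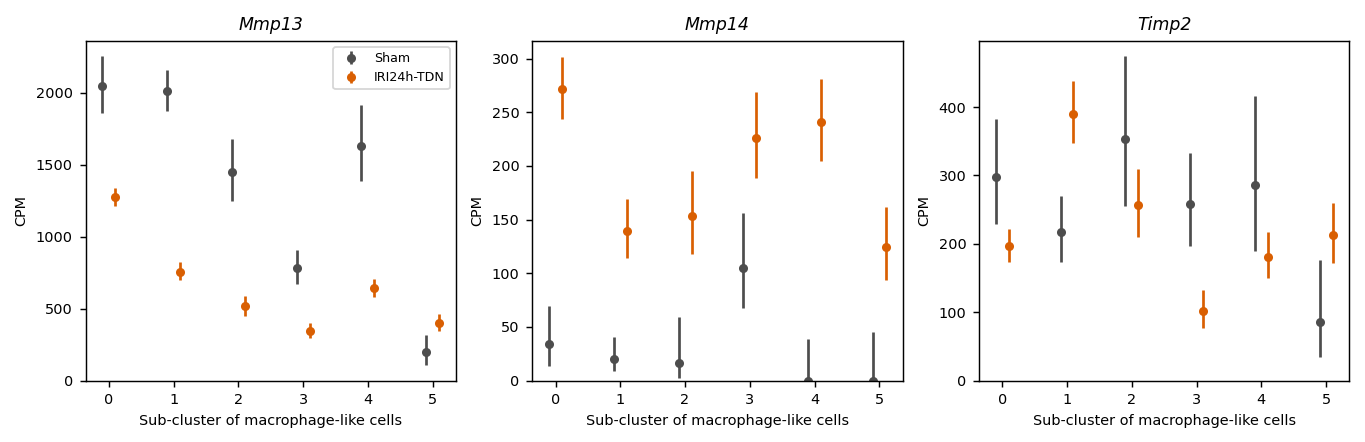
Level (CPM) of Mmp13, Mmp14 and Timp2 in the 6 sub-clusters of macrophage-like cells in Sham and IRI24h-TDN, with 95% Poisson intervals that cover counting error. Mmp13 is lower in IRI24h-TDN in sub-clusters 0 to 4 and Mmp14 is higher in every sub-cluster, while Timp2 has no common direction.

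Outside leukocytes, PEC-like cells held 83.1, 159 and 131 CPM of Mmp14 in Sham, IRI24h-TDN and IRI24h-TD. The ratio of IRI24h-TDN to Sham was 1.91 (1.48 to 2.45), with a UMI in 42.8%, 75.9% and 78.4% of cells. Ascending limb-like cells had 26.0 and 76.1 CPM (ratio 2.93, 1.89 to 4.79) and PEC-proximal cells 42.3 and 61.5 CPM (ratio 1.45, 1.11 to 1.90). Podocyte-like cells had 8.61 and 9.39 CPM and mural-like cells 55.5 and 66.2 CPM, and both intervals of the ratio included 1 (1.09, 0.943 to 1.26, and 1.19, 0.919 to 1.56). Lymphocyte-like cells had 0 UMIs of Mmp14 in Sham and 26 in IRI24h-TDN, from 15 of 67 cells. The ratio was 19.0 with Sham set to a floor of 3 UMIs, and the exact interval from the counts themselves began at 14.3. In lymphocyte-like cells the 7 macrophage markers summed to 118 and 599 CPM.

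Adamts1, a protease of versican and aggrecan, was the most abundant protease of the 5. It was highest in PEC-like cells, at 3446 CPM (3389 to 3503) with a UMI in 95.1% of cells. Mural-like cells followed at 2172 CPM, fibroblast-like cells at 1519 CPM, PEC-proximal cells at 1378 CPM and podocyte-PEC cells at 1293 CPM, and these intervals did not overlap. Podocyte-like cells held 118 CPM, and lymphocyte-like and macrophage-like cells 14.3 and 10.7 CPM.

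In 10 of the 12 classes that could be compared, Adamts1 was higher in IRI24h-TDN than in Sham with an interval above 1, and in 5 of them it was at least 2-fold higher. Intercalated-like cells had the largest ratio, with 44.1 CPM in Sham and 596 CPM in IRI24h-TDN (13.5, 11.0 to 16.8), and cells with a UMI went from 16.5% to 63.7%. The ratio stood between 5.98 and 16.1 over the other ways of processing. Ascending limb-like cells had 139 and 577 CPM (4.16, 3.45 to 5.08), of which 1 cell gave 32.1% of the Sham UMIs. Endothelial-like cells had 423 and 1550 CPM (3.67, 3.21 to 4.20) and connecting tubule-like cells 147 and 534 CPM (3.63, 3.20 to 4.13).

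Proximal tubule-like cells had 256, 387 and 550 CPM of Adamts1 in Sham, IRI24h-TDN and IRI24h-TD, a ratio of IRI24h-TDN to Sham of 1.51 (1.41 to 1.63). PEC-proximal and podocyte-PEC cells had 1154 and 1220 CPM in Sham and ratios of 1.32 and 1.33. PEC-like cells had 2846, 4248 and 4683 CPM in Sham, IRI24h-TDN and IRI24h-TD, a ratio of IRI24h-TDN to Sham of 1.49 (1.43 to 1.56). Summed with PEC-proximal cells the ratio was 1.20, with a range of 1.0004 to 1.53 over the other ways of processing. Mural-like cells had 1352 and 2655 CPM (1.96, 1.87 to 2.06). In the 2 largest mural-like sub-clusters, led by Fabp4 and Rgs16 and by the elastin gene Eln, the levels were 2231 and 3554 CPM and 688 and 2030 CPM. The ratio was below 1 in macrophage-like cells, with 17.8 and 8.96 CPM (0.504, 0.285 to 0.916), and in lymphocyte-like cells, with 16.6 and 10.4 CPM from 14 and 4 UMIs and an interval that includes 1 (0.625, 0.150 to 1.99).

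Podocyte-like cells had 54.4, 144 and 131 CPM of Adamts1, from 1977, 7037 and 10928 UMIs, and the ratio of IRI24h-TDN to Sham was 2.64 (2.51 to 2.78). Cells with a UMI were 17%, 26.9% and 27.5%, and 7.07%, 13.8% and 13.2% after thinning. All 5 podocyte-like clusters had more Adamts1 in both IRI libraries than in Sham. In the largest the levels were 41.7, 160 and 145 CPM, and in the one with the least Adamts1 they were 15.2, 44.9 and 37.2 CPM. The 10 stress genes summed to 22371, 25947 and 26270 CPM in podocyte-like cells. In Sham and IRI24h-TDN they summed to 21431 and 11885 CPM in PEC-like and 7812 and 7188 CPM in intercalated-like cells. Endothelial-like cells had 21185 and 17910 CPM and mural-like cells 20709 and 19330 CPM. Fos, a gene of this list, was 6021 and 8104 CPM in podocyte-like cells, and its ratio ran from 1.03 to 2.46 in their clusters. It was 4941 and 3075 CPM in PEC-like and 1404 and 1424 CPM in intercalated-like cells. In endothelial-like cells Fos was 3678 and 4072 CPM, and in mural-like cells 5649 and 5833 CPM. The part of the stress genes in the Adamts1 values was not tested.

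Adamts5, the other aggrecan-cutting member and the genomic neighbour of Adamts1, shared its leading class with it, although neither gene was used for clustering. PEC-like cells held 919 CPM (890 to 949), and 86.8% of them had a UMI. Fibroblast-like cells at 418 CPM and mural-like cells at 408 CPM came next with overlapping intervals, then podocyte-PEC cells at 358 CPM and PEC-proximal cells at 188 CPM. Endothelial-like cells had 25.6 CPM, every remaining class was below 9 CPM, and podocyte-like cells had 1.02 CPM.

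In PEC-like cells Adamts5 was 583, 1398 and 1594 CPM in Sham, IRI24h-TDN and IRI24h-TD. A UMI was seen in 81.3%, 96.3% and 98.6% of 257, 54 and 74 cells. The ratio of IRI24h-TDN to Sham was 2.40 (2.20 to 2.61). PEC-proximal cells had 87.7, 183 and 377 CPM, a ratio of 2.09 (1.77 to 2.47). The 12 PEC markers summed to 9827, 15332 and 15250 CPM in PEC-like cells and to 4033, 6631 and 8297 CPM in PEC-proximal cells, so the cells of these classes were richer in PEC markers after IRI. The part of that in the Adamts5 ratio was not tested, and with both classes summed the ratio was 1.70 and ranged from 1.13 to 2.06 over the other ways of processing.

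The remaining Adamts5 values did not go one way. Podocyte-PEC cells had 443 CPM in Sham and 270 CPM in IRI24h-TDN (ratio 0.609, 0.542 to 0.684). In the same cells 12 PEC markers summed to 3259 and 2454 CPM and 12 podocyte markers to 14996 and 22494 CPM, and their part in this result was not tested. Mural-like cells had 418 and 407 CPM (0.975, 0.884 to 1.07). Within mural-like cells, however, the sub-cluster led by Ren1 had 1602 CPM in Sham and 272 CPM in IRI24h-TDN (ratio 0.169), whereas the one led by Fabp4 and Rgs16 had 471 and 651 CPM and the one led by Eln 161 and 306 CPM. Podocyte-like cells had only 65, 26 and 81 UMIs of Adamts5 in the 3 libraries.

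UMIs of both Adamts1 and Adamts5 were present in 324 of the 385 PEC-like cells, a share of 84.2% (80.1% to 87.7%), and in 401 of the 749 mural-like cells, 53.5% (49.9% to 57.2%). Each gene on its own was also found in most PEC-like cells, as given above. An excess over the separate shares was not tested. Wt1 UMIs were found in 297 of the 385 PEC-like cells, 77.1%, and these cells were deeper, with a median of 10702 UMIs against 6338. Adamts1 was 3572 CPM in PEC-like cells with a Wt1 UMI and 2722 CPM in those without (ratio 1.31, 1.25 to 1.38). Adamts5 was 932 and 844 CPM (1.10, 1.01 to 1.21), Timp2 2099 and 2323 CPM and Mmp2 41.6 and 67.9 CPM. These cells were pooled over the 3 libraries, and the part of library and depth in these differences was not tested. A cell without a Wt1 UMI need not lack Wt1.

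Timp1, the soluble inhibitor that many injured tissues induce, was nearly absent from Sham and present in both IRI libraries. By library it had 66 (Sham), 2202 (IRI24h-TDN) and 1074 UMIs (IRI24h-TD), or 1.01, 24.9 and 11.6 CPM over all kept cells. In each of the 10 classes with enough UMIs to compare, its level in IRI24h-TDN was at least 2-fold that in Sham. This was not so of any other member.

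In podocyte-like cells Timp1 stood at 0.440, 12.4 and 10.3 CPM in Sham, IRI24h-TDN and IRI24h-TD, from 16, 607 and 857 UMIs. The ratio of IRI24h-TDN to Sham was 28.2 (17.2 to 49.6), and a UMI was seen in 0.283%, 8.92% and 8.26% of cells. All 5 podocyte-like clusters showed it, from 0.272 to 16.5 CPM in the largest. PEC-like cells had 3.08, 62.6 and 53.7 CPM (ratio 20.3, 9.31 to 50.5, from 8 and 37 UMIs), with a UMI in 2.33%, 38.9% and 44.6% of cells. Podocyte-PEC cells had 6.18, 74.3 and 24.5 CPM (12.0, 7.17 to 21.4). Syn1, the gene around Timp1, was 13.1, 15.5 and 15.7 CPM in podocyte-like cells.

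The tubular classes had little Timp1 in Sham. Proximal tubule-like cells had 0 UMIs in Sham and 32 in IRI24h-TDN, 29.96-fold higher with Sham set to the floor of 3 UMIs. The exact interval from the counts themselves began at 23.0. Intercalated-like cells had 0 and 103 UMIs, 15-fold higher on that floor with an interval from 12.0. PEC-proximal cells had 0 and 11 UMIs, 7.79-fold higher on that floor with an interval from 5.33. Ascending limb-like cells had 4.95 and 36.1 CPM (7.30, 2.8 to 27.1). Distal convoluted tubule-like cells, of which Sham held 49, had 0 UMIs there and 391 in IRI24h-TDN, or 57.5 CPM. Connecting tubule-like cells stayed near 0, with 1 and 3 UMIs.

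Fibroblast-like cells had by far the highest Timp1 level of all classes, 482 CPM over the 3 libraries against 51.6 CPM in the next. Nearly all of it came from IRI24h-TDN, where 36 of 41 cells held 614 UMIs, or 1136 CPM. In Sham 10 of 108 cells held 18 UMIs (31.3 CPM), and in IRI24h-TD 8 of 43 cells held 24 UMIs (96.9 CPM). The fibroblast-like cells of IRI24h-TDN were also those with the most fibroblast markers, as given above. Mural-like cells had 1 and 32 UMIs in Sham and IRI24h-TDN (19.9, 3.32 to 808). Macrophage-like cells were the class in which the difference was least clear, with 0.889 and 3.15 CPM and an interval of the ratio from 0.53 to 150.

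Timp2, which inhibits metalloproteinases and also takes part in the activation of Mmp2, was the most abundant member. Fibroblast-like cells had 2336 CPM, PEC-like cells 2132 CPM and podocyte-PEC cells 2104 CPM, the last pair with overlapping intervals. Podocyte-like cells had 1260 CPM, and 99.6% of them held a UMI. Mural-like and PEC-proximal cells had 709 and 616 CPM, and the proximal and ascending limb-like cells were lowest at 36.6 and 32.8 CPM.

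In podocyte-like cells Timp2 was 958, 1332 and 1349 CPM in Sham, IRI24h-TDN and IRI24h-TD, a ratio of IRI24h-TDN to Sham of 1.39 (1.37 to 1.41). After thinning, 82.2%, 91.3% and 90.8% of cells held a UMI. The direction was the same in all 5 podocyte-like clusters, with ratios from 1.25 to 1.51. PEC-like cells had 2168, 2113 and 2039 CPM (0.975, 0.916 to 1.04). In no class was Timp2 at least 2-fold higher in IRI24h-TDN. It was lower in PEC-proximal cells, 704 and 441 CPM (0.627, 0.575 to 0.683). With PEC-like and PEC-proximal cells summed the Timp2 ratio was 0.669, and 1.11 when no mitochondrial limit was set on cells. Lower levels were also seen in proximal tubule-like cells, 39.5 and 12.3 CPM (0.311, 0.213 to 0.442). Ascending limb-like cells had 73.0 and 22.8 CPM (0.312, 0.225 to 0.437). Intercalated-like cells went the other way, 60.8 and 98.1 CPM (1.61, 1.32 to 1.98), with 18.1% of the Sham UMIs from 1 cell. The 12 podocyte markers summed to 847 and 423 CPM in proximal tubule-like cells, 620 and 322 CPM in ascending limb-like cells and 1688 and 2689 CPM in intercalated-like cells, in the same order as Timp2, and their part in these results was not tested.

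Timp3, the matrix-bound inhibitor of ADAMTS enzymes and metalloproteinases, was highest in podocyte-PEC cells at 1103 CPM. Endothelial-like cells at 819 CPM and fibroblast-like cells at 815 CPM had overlapping intervals. Proximal tubule-like cells had 647 CPM and podocyte-like cells 607 CPM, while macrophage-like cells had 7.69 CPM, the lowest of all.

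Timp3 was lower in IRI24h-TDN than in Sham with an interval below 1 in 9 of the 12 classes. Proximal tubule-like cells had 801, 323 and 268 CPM in Sham, IRI24h-TDN and IRI24h-TD (ratio of IRI24h-TDN to Sham 0.403, 0.375 to 0.432). Cells with a UMI were 84.2%, 76.3% and 37.0%, at unlike median depths of 6614, 13308 and 1303.5 UMIs. The 16 proximal tubule markers summed to 70118, 10990 and 9787 CPM in the same cells and the 12 PEC markers to 170, 1295 and 2509 CPM, and the part of this in the result was not tested. A cluster led by Slc34a1 and G6pc, genes of mature proximal tubule, had 1100 CPM of Timp3 and was made of 264 cells of Sham and 4 of IRI24h-TDN. In the largest proximal tubule cluster the levels were 733, 332 and 272 CPM. After thinning, 67.9%, 43.8% and 37.2% of 660, 144 and 43 cells of that cluster held a UMI. PEC-like cells had 495, 257 and 314 CPM (0.519, 0.436 to 0.614), and with PEC-proximal cells added the ratio was 0.494, or 0.874 with no mitochondrial limit.

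Podocyte-like cells had 747, 562 and 571 CPM of Timp3 (0.753, 0.740 to 0.765), in 97.5%, 96.6% and 96.5% of cells, so Timp2 and Timp3 went opposite ways there. The ratios in the 5 podocyte-like clusters ran from 0.721 to 0.805. Timp3 was higher in IRI24h-TDN in 3 classes. Endothelial-like cells had 682 and 1030 CPM (1.51, 1.33 to 1.71), mural-like cells 248 and 362 CPM (1.45, 1.29 to 1.64) and intercalated-like cells 76.6 and 107 CPM. Podocyte markers summed to 14696 and 7452 CPM in endothelial-like cells, 4432 and 4546 CPM in mural-like cells and 1688 and 2689 CPM in intercalated-like cells. Fibroblast-like cells had 1074, 261 and 1421 CPM of Timp3 in the 3 libraries and 6213, 2599 and 12326 CPM of podocyte markers. The part of these markers in the Timp3 values was not tested.

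**Figure D4:**
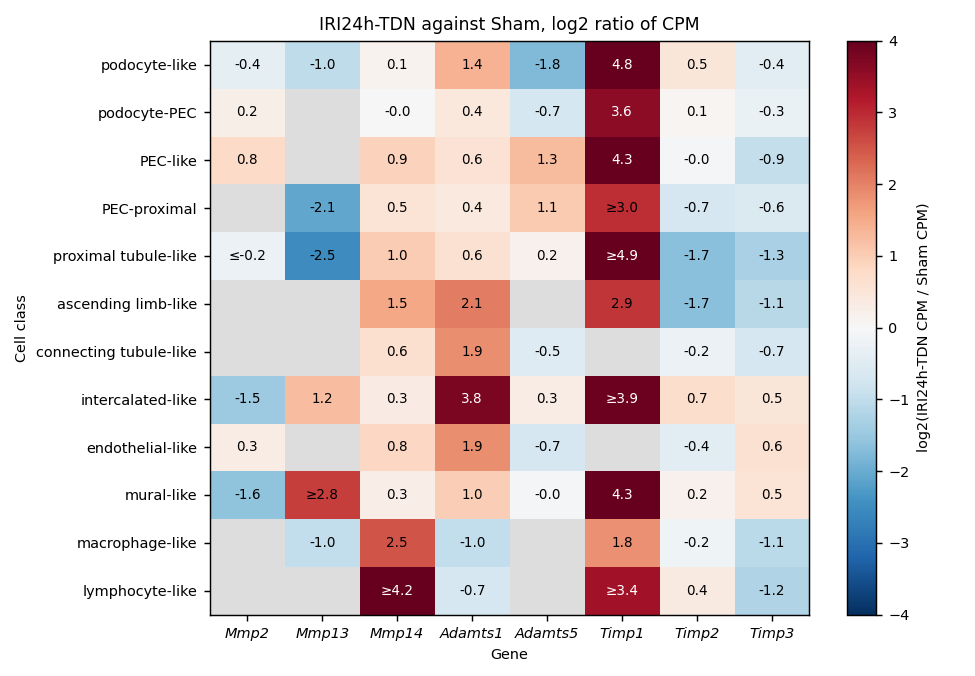
Log2 ratio of the level in IRI24h-TDN to that in Sham for each gene (columns) in the 12 classes with at least 50 cells in both libraries (rows). Red is higher in IRI24h-TDN and blue lower, and grey marks pairs with under 10 UMIs. Values with an inequality sign were taken with a library of 0 UMIs set to 3. The Timp1 column is red but for connecting tubule-like and endothelial-like cells, which are grey. Adamts1 is red in all but macrophage-like and lymphocyte-like cells, and Timp3 is blue in 9 classes.

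Over the 12 classes, 80 gene and class pairs had at least 10 UMIs, and the level in IRI24h-TDN was at least 2-fold higher in 23 and at least 2-fold lower in 12. A share of all genes pooled over these classes is not given here, so the members are set beside all genes class by class. In podocyte-like cells 2 of 8 members were 2-fold higher and 2 lower, where over all 14463 genes with as many UMIs 6.24% were higher and 12.0% lower. In PEC-like cells 2 of 7 were higher and 0 lower, beside 6.98% and 13.3% of all genes. In mural-like cells 2 of 8 were higher and 1 lower, beside 6.6% and 7.42%. Among the higher was Mmp13, of which 1 cell gave 87.9% of the 33 UMIs. In macrophage-like cells 2 of 6 were higher and 1 lower, beside 15.3% and 10.6%. In proximal tubule-like cells, where 20% of all genes were 2-fold higher and 14.7% lower, 2 of 8 members were higher and 3 lower. Of these, Mmp14 was counted as higher from 7 UMIs in Sham and 5 in IRI24h-TDN (ratio 2.01, 0.502 to 7.34). Mmp13 was counted as lower from 16 and 1 UMIs (0.176, 0.0042 to 1.13).

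Ascending limb-like cells had 3 of 5 members higher beside 10% of genes and 2 lower beside 13.5%. Intercalated-like cells had 3 of 8 higher beside 10.6% and 1 lower beside 7.88%, and endothelial-like cells had 1 of 6 higher beside 8.47% and 0 lower beside 11.9%. PEC-proximal cells had 2 of 7 higher beside 7.76% and 1 lower beside 12.1%. Podocyte-PEC cells had 1 of 7 higher beside 3.69% and 0 lower beside 12.3%. Connecting tubule-like cells had 1 of 5 higher beside 10.9% and 0 lower beside 9.26%, and lymphocyte-like cells had 2 of 5 higher beside 17.5% and 1 lower beside 11.0%. Timp1 accounts for a pair in most of these counts. Some counted pairs had few UMIs and an interval that includes 1. In intercalated-like cells these were Mmp13 from 3 and 16 UMIs (2.33, 0.667 to 12.5) and Mmp2 from 6 and 5 UMIs (0.364, 0.0879 to 1.43). In PEC-proximal cells Mmp13 was counted as lower from 9 and 1 UMIs (0.236, 0.0054 to 1.70).

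The balance between inhibitors and proteases within a class can be read as the share of the UMIs of the 8 genes that came from Timp1, Timp2 and Timp3. Each UMI counts a transcript and says nothing of protein or activity. In podocyte-like cells the inhibitors took 93.6%, 90.8% and 91.4% in Sham, IRI24h-TDN and IRI24h-TD, with Timp2 going from 52.5% to 63.4% and Timp3 from 41% to 26.8% between Sham and IRI24h-TDN. In PEC-like cells they took 42.9%, 29.3% and 27.1%, and Adamts5 went from 9.37% to 16.8%. Podocyte-PEC cells stayed at 64.3%, 61.2% and 63.1%.

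The inhibitor share was lower in IRI24h-TDN in each of these tubular classes. Proximal tubule-like cells went from 76.0% to 46.7%, ascending limb-like cells from 52.1% to 14.1%, connecting tubule-like cells from 66.4% to 29.8% and intercalated-like cells from 70.5% to 27.1%. Adamts1, which was higher in all 4 of these classes, makes up most of the protease share there. Endothelial-like cells went from 67.0% to 44.3% and mural-like cells from 32.8% to 26.2%. Macrophage-like cells were the lowest in Sham, at 14.2%, and stood at 18.9% in IRI24h-TDN. Mmp13 gave 82.7% and 63.4% of their UMIs of the 8 genes, and Mmp14 1.95% and 16.8%.

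**Figure D5:**
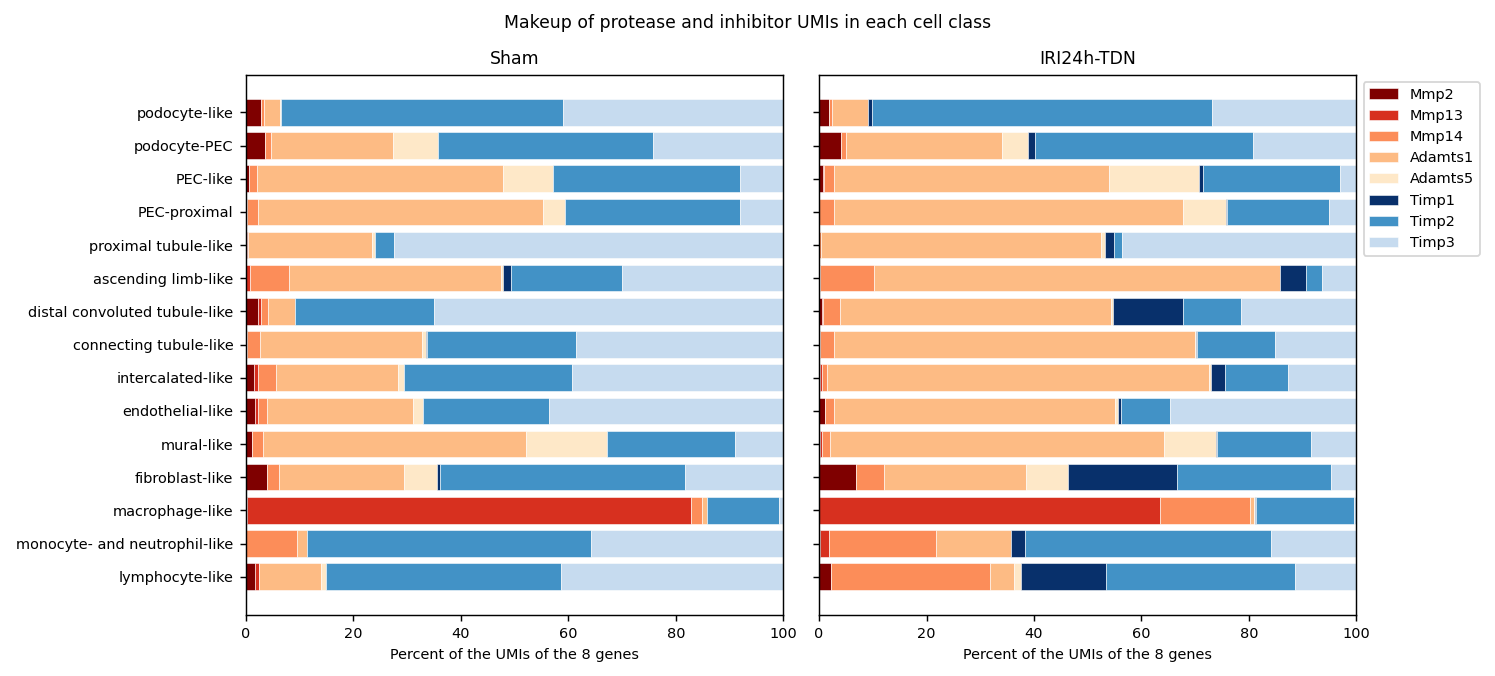
Share (percent) of the UMIs of the 8 genes contributed by each gene in each class, in Sham (left) and IRI24h-TDN (right), with proteases in red and orange tones and inhibitors in blue. Inhibitors fill over 90% of the bar in podocyte-like cells of both libraries, and Mmp13 fills most of the bar in macrophage-like cells.

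Sorted tdT+ cells alone, IRI24h-TD, were compared with the mixture IRI24h-TDN in the 5 classes with at least 50 cells in both. In podocyte-like cells the levels of most members lay close together. Timp2 had a ratio of IRI24h-TD to IRI24h-TDN of 1.01 and Timp3 of 1.02, Mmp2 of 1.01 (0.950 to 1.06) and Adamts1 of 0.910 (0.883 to 0.938). Timp1 was 0.827 (0.745 to 0.920). The member that differed at least 2-fold was Mmp13 (0.0335, 0.0039 to 0.13), the macrophage gene. Over all genes of podocyte-like cells 1.79% were 2-fold higher and 4.74% lower.

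In PEC-like cells 0 of 7 members differed 2-fold, beside 6.15% of genes higher and 4.22% lower. Podocyte-PEC cells had 0 of 7 higher beside 2.66% and 1 lower beside 4.03%, which was Timp1 at 74.3 and 24.5 CPM (0.330, 0.240 to 0.449). PEC-proximal cells had 0 of 7 lower beside 2.68% and 2 higher beside 4.8%. These were Adamts5 at 183 and 377 CPM (2.06, 1.79 to 2.37) and Mmp2 from 1 and 9 UMIs (7.82, 1.08 to 343). Proximal tubule-like cells had 3 of 6 higher beside 7.14% and 0 lower beside 5.83%. The 3 were Adamts5 at 5.62 and 57.4 CPM (10.2, 5.68 to 19.3), Timp2 at 12.3 and 94.8 CPM (7.72, 5.11 to 11.9) and Mmp14 at 1.75 and 19.95 CPM (11.4, 3.98 to 39.7, from 5 and 16 UMIs). PEC markers in these proximal tubule-like cells summed to 1295 and 2509 CPM and podocyte markers to 423 and 1571 CPM, and the median depth was 13308 and 1304 UMIs per cell. The part of these in the result was not tested.

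Across the 15 classes, the genes whose levels followed each member most closely, by Pearson's r of log2(CPM + 10) among 7818 genes, differed between members. For Mmp2 these were the chemokine gene Cxcl12 (r = 0.966), the collagen gene Col1a2 (0.949) and Cdh11 (0.938). For Mmp13 they were Fcna (0.993), Il10 (0.983) and Ifnb1 (0.982), genes of innate immunity. For Adamts5 they were Fhl2 (0.971), Cpe (0.941) and C1s1 (0.926), and for Adamts1 Trip6 (0.948), the collagen chaperone gene Serpinh1 (0.930) and Prss23 (0.926). Timp1 was followed by Serpina3n (0.940), Ctsk (0.915) and Scara5 (0.893), Timp2 by Tfpi (0.947), Pofut2 (0.942) and Usp34 (0.935), Timp3 by Tulp3 (0.909), Apbb2 (0.906) and Rbsn (0.905), and Mmp14 by Samd4b (0.920), Prmt1 (0.874) and Eif4e3 (0.851). Among the members, Mmp2 and Timp2 had r = 0.826 and Adamts1 and Adamts5 r = 0.811. The classes share libraries and differ in depth, so these values are descriptions.

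The other genes of the pathway were counted from lists of whole families. Of the 23 matrix metalloproteinases, 22 were in the tables and 10 reached 50 CPM in a class. Mmp2, Mmp3 and Mmp14 were highest in fibroblast-like cells, Mmp12 and Mmp13 in macrophage-like cells, and Mmp8, Mmp9 and Mmp19 in monocyte- and neutrophil-like cells. Over the 12 classes, 84 metalloproteinase and class pairs could be measured, of which 22 were 2-fold higher and 19 lower in IRI24h-TDN than in Sham. ADAMTS proteases gave 22 higher and 22 lower of 83, and the 5 inhibitors, which add Timp4 and Reck to the members, 12 higher and 8 lower of 44. The ADAM sheddases gave 16 higher and 4 lower of 67, the plasminogen system 31 higher and 13 lower of 61, and the cathepsins with cystatin C 31 higher and 0 lower of 67. These families contain the members. The share of all genes that was 2-fold higher was lowest in podocyte-PEC cells, at 3.69%, and highest in proximal tubule-like cells, as given above. The share that was 2-fold lower ran from 7.42% in mural-like cells to 14.7% in proximal tubule-like cells. A share of all genes pooled over the 12 classes is not given here, so whether a family differed from all genes was not tested. In macrophage-like cells the median log2 ratio was 1.12 for 7 ADAM genes and 0.55 for 5 cathepsin genes beside 0.20 over all genes. In PEC-like cells it was 1.27 for 6 cathepsin genes and -0.87 for 8 metalloproteinase genes beside -0.05, and in podocyte-like cells -0.35 for 11 ADAMTS genes and 0.66 for 6 cathepsin genes beside -0.07.

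Several genes of these lists stood beside the members in the classes described. In podocyte-like cells Adamts16 was 32.1 CPM in Sham and 2.20 CPM in IRI24h-TDN (0.0687, 0.0559 to 0.0838). In PEC-like cells Plaur, the urokinase receptor, was 6.16 and 118 CPM (19.2, 11.1 to 35.5). Proximal tubule-like cells had 0 and 302 UMIs of Plaur, 283-fold higher with Sham set to 3 UMIs. In intercalated-like cells Mmp7, matrilysin, had 0 and 217 UMIs, 31.6-fold higher on the same floor. In mural-like cells Adamts4, another aggrecanase, was 48.7 and 242 CPM (4.96, 3.92 to 6.35) and Timp4 6.17 and 32.1 CPM (5.21, 2.70 to 11.3). In macrophage-like cells the sheddase gene Adam8 was 13.3 and 247 CPM (18.6, 11.2 to 33.3), a direction it shared with Mmp14 and not with Mmp13.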

How the data were processed

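The UMI counts deposited by the authors were raw counts per gene and barcode, 1 table per library, with no normalization. The submitters' processing notes name CASAVA 1.8, UMI-tools, Seurat and the build mm10, and the strand setting of the counting is not given in the sources used here. According to the study's methods, multiplets had been excluded.

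Barcodes with at least 200 genes and at most 50% mitochondrial UMIs were kept, which left out 1547, 444 and 118 barcodes under the first limit in Sham, IRI24h-TDN and IRI24h-TD and 468, 594 and 77 over the second. The 8 members and the lists were chosen with earlier results of these data known. For clustering, 2000 variable genes were used without the members and the genes of the lists, with 30 principal components, a Harmony-type correction between libraries (theta 2) written in numpy 2.4.6, 15 neighbours, and leidenalg 0.10.2 with igraph 0.11.9 at resolution 1. The 28 clusters were named from fixed marker lists. Left out of the 15 classes were 226 cells with podocyte markers beside those of another type (of which 76.1% had doublet scores among the top 6%), 78 cycling cells and 910 unnamed cells. Their UMIs still count in whole-library totals.

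Counts were summed per class and library and divided by all UMIs of the class. Levels carry exact Poisson intervals, shares exact Clopper-Pearson intervals and ratios exact conditional intervals, all at 95% and for counting error only. Ratios needed 50 cells in both libraries, and genes were counted past 2-fold with at least 10 UMIs in the pair. A library with 0 UMIs was set to 3 UMIs to give a ratio, and the exact interval from the counts themselves can begin below that ratio. For thinned shares each cell was drawn down to 2000 UMIs, which left out 437, 13 and 667 cells by library in the order above. The genes named besides the members were those of the lists past 2-fold with at least 20 UMIs in the higher library, at most 4 a class by fold, and the 3 genes most like each member among genes reaching 50 CPM in a class. Sub-clusters used resolution 0.5.

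Python 3.11.15, scipy 1.17.1, pandas 2.3.3, scikit-learn 1.9.0 and matplotlib 3.10.9 were used, with edgeR 4.0.16 and DESeq2 1.42.0 in R 4.3.3 for alternative scaling. Ratios and likeness were tested on simulated data. There were 13 alternatives, all planned. Gene positions came from GENCODE M21 and promoters from RefSeq GRCm38.p6.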

Additional observations from a re-analysis of the deposited data

Results flagged for a closer look

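With limits of 1.5-fold and 50 UMIs, 5 genes were flagged because the ratio of IRI24h-TDN to Sham lay above 1 in some classes and below 1 in others. Mmp13, not among them, was 0.507 in macrophage-like cells. In mural-like cells it was 6.82 with Sham set to 3 UMIs, where 1 cell gave 87.9% of the 33 UMIs. With 1 library per condition, the differences between classes were not tested. Mmp2 was 1.70 in PEC-like cells and 0.328 in mural-like cells. Adamts1 was 13.5 in intercalated-like cells and 0.504 in macrophage-like cells. Adamts5 was 2.40 in PEC-like cells and 0.297 in podocyte-like cells, where it had 65 and 26 UMIs. Timp2 was 1.61 in intercalated-like cells and 0.311 in proximal tubule-like cells, and Timp3 was 1.51 in endothelial-like cells and 0.403 in proximal tubule-like cells.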

How the results depend on the processing

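No paired analysis was possible because each condition had 1 library and the groups share a single replicate number. Of 273 recomputed values of 25 ratios, 7 turned direction and 6 moved by over 1.5 times, and the causes were not tested. The 7 that turned were ratios near 1 (Mmp2, Timp2 and Timp3 of IRI24h-TD to IRI24h-TDN in podocyte-like or parietal cells) and Timp2 of IRI24h-TDN to Sham in parietal cells (PEC-like with PEC-proximal), 0.669 and 1.11 with no mitochondrial limit. Timp3 there was 0.494 and 0.874. Adamts1 in intercalated-like cells stood between 5.98 and 16.1.

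The class with the highest level was the same for all 8 members except with no mitochondrial limit and with no correction between libraries, where it was the same for 3 and the cause was not tested. The count of 23 pairs that were 2-fold higher in IRI24h-TDN was 15 after thinning. For IRI24h-TD against IRI24h-TDN the 5 higher pairs were 3 with no mitochondrial limit, 1 with no correction, 3 at resolution 0.5 and 0 after thinning. The 2 lower pairs were 1 with limits of 500 genes and 20% mitochondrial UMIs, 1 with no correction and 1 after thinning. With no minimum above 1 UMI, 29 genes of the lists passed 2-fold in macrophage-like cells in place of 15. Of all genes with at least 10 UMIs in these cells, 15.3% were 2-fold higher and 10.6% lower. The share of all genes with no such minimum is not given here.

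In podocyte-like cells the ratio of Timp2 was 1.47 with edgeR's TMM factors and 1.44 with DESeq2's size factors, and that of Timp3 was 0.770 after thinning, 0.797 (TMM) and 0.781 (DESeq2). Adamts1 was 2.32 with the stricter cell limits, 2.24 with no mitochondrial limit, 3.08 with no correction, 2.30 at resolution 2, 2.35 with 4000 variable genes and 2.8 with TMM. Timp2 of IRI24h-TD to IRI24h-TDN was 0.989 with DESeq2. Mmp13 in macrophage-like cells was 0.538 with no mitochondrial limit, 0.446 with no correction, and 0.464 and 0.465 at resolution 0.5 and 2. Adamts1 in mural-like cells was 1.84 after thinning and 2.08 with DESeq2. Adamts5 in parietal cells was 1.43 with the stricter limits, 2.06 with no mitochondrial limit, 1.48 with no correction, 1.48 at resolution 0.5, 1.53 at resolution 2, 1.13 with 4000 variable genes and 1.86 after thinning. TMM moved the log2 ratio of all genes of IRI24h-TDN to Sham by -0.33 in proximal tubule-like, 0.18 in ascending limb-like and -0.34 in lymphocyte-like cells, and DESeq2 by -0.39, 0.25 and -0.29, by -0.12 in PEC-proximal and by 0.13 in intercalated-like cells. Without the cell holding the most UMIs of a gene, none of the 25 ratios turned. Depth limits the rare pairs most: a class level of 0 UMIs was set to 3 for ratios, and its 95% Poisson interval reaches above 3.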

Other observations

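Other proteases of these lists separated further classes. In podocyte-PEC cells the stromelysin gene Mmp10 had 0 UMIs in Sham and 14.7 CPM in IRI24h-TDN, 13.5-fold higher with Sham set to 3 UMIs. Serpine2, a protease inhibitor, stood at 2.18 and 29.4 CPM in the same cells (13.5, 5.71 to 38.9). In ascending limb-like cells the lysosomal protease gene Ctsl was 464 and 2462 CPM (5.30, 4.78 to 5.89). In endothelial-like cells Adamts9 was 11.3 and 46.7 CPM and Adamts4 17 and 66.2 CPM, next to Adamts1 in the same direction. In proximal tubule-like cells Adamts15 had 322 UMIs in Sham and 1 in IRI24h-TDN, and Adam8 was 0.625 and 32.6 CPM (52.2, 21.6 to 165). In PEC-proximal cells Plaur was 1.22 and 86.1 CPM (70.6, 27.0 to 263).

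Ctss, the cathepsin gene of phagocytes, had 3 UMIs in PEC-like cells of Sham, 59 in those of IRI24h-TDN and 0 in those of IRI24h-TD, the library with 11 macrophage-like cells. The 7 macrophage markers summed to 244, 313 and 73.1 CPM in the PEC-like cells of the 3 libraries, and their part in the Ctss values was not tested. In thinned podocyte-PEC cells Adamts1 and Adamts5 were found together in 20% of cells, against 14.8% for the product of their shares. In podocyte-PEC cells without a Wt1 UMI (51 of 836), Adamts5 was 1396 CPM against 326 CPM in those with one, and Timp1 152 against 23.6 CPM. These cells were pooled over the 3 libraries, between which both genes differed in this class. The makeup of the 51 cells by library and depth is not given here, and its part in these values was not tested.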
